A study of Mus musculus with 16 samples.

Results

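The data described here are the transcript levels of 10 genes of the tumor necrosis factor (TNF) superfamily and its intracellular brake, among 55492 genes listed for the mouse left ventricle (40116 of them with any read). They are a list of named genes with no threshold on a measured value, drawn up with earlier results of these data known: the ligands Tnf, Tnfsf12 (TWEAK) and Fasl, the receptors Tnfrsf1a (TNFR1), Tnfrsf1b (TNFR2), Tnfrsf12a (Fn14) and Fas, the soluble decoy Tnfrsf11b (osteoprotegerin), and the inhibitors Tnfaip3 (A20) and Nfkbia (IκBα). All 10 were found in the table. RNA sequencing was carried out on 16 hearts of male C57BL/6 mice aged 8 to 12 weeks. PKM2fl/fl mice carry a floxed PKM2-specific exon of the pyruvate kinase gene Pkm and no Cre. PKM2-/- mice descend from a cross of that line with CMV-Cre mice, whose recombinase acts in all tissues, and were bred on to remove Cre, so the loss of PKM2 was global and not limited to cardiomyocytes. Each genotype had 2 untreated hearts (baseline), 3 hearts after sham surgery and 3 hearts 3 days after myocardial infarction (MI) by permanent ligation of the left anterior descending coronary artery. The time of collection after sham surgery is not stated in the sample titles.

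TNF superfamily ligands are mostly made as trimeric membrane proteins that can be shed, and they act on receptors that fall broadly into a class with a cytoplasmic death domain and a class that recruits TRAF adaptors directly. Receptor engagement can activate the transcription factor NF-κB through the IκB kinase complex or, when that arm is blocked, start apoptosis or necroptosis. NF-κB in turn induces Nfkbia and Tnfaip3, whose proteins hold it in the cytoplasm and edit the ubiquitin chains upstream of it, closing a negative feedback loop. In the infarcted heart this system is known for its part in inflammation, cell death and scar formation.

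The promoters of the ligand Tnf and of both feedback inhibitors are shown because Tnfaip3 rose with Tnf after infarction while Nfkbia, also a textbook NF-κB target, did not pass the test. They run from 250 bases before to 50 bases after the annotated start, are given 5′ to 3′ on the gene's strand from RefSeq (GRCm38, the build named mm10 by the authors), and lie at chr17:35201958-35202257, chr10:19015361-19015660 and chr12:55492598-55492897, all on the minus strand. Capitals mark matches on either strand to a κB-like motif (GGG, any 3 bases, then TTCC), whose letters were written down after these genes' results were known.
Tnf: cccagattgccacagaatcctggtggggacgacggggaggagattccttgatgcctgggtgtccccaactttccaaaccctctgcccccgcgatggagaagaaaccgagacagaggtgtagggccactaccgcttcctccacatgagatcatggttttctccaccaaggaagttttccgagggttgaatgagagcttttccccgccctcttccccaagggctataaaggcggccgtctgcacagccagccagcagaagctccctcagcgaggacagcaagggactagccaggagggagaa
Tnfaip3: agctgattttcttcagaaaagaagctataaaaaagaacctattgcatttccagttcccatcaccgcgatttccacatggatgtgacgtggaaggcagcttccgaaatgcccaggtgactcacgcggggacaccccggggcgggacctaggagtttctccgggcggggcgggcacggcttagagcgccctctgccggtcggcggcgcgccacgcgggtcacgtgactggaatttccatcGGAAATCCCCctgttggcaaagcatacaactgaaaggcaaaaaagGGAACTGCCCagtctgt
Nfkbia: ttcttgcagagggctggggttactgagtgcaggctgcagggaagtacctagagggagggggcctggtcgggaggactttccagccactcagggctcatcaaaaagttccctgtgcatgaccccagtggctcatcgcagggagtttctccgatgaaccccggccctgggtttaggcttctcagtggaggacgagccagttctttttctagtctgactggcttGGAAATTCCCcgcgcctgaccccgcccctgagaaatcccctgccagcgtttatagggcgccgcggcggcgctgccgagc
Of the 10 genes, 8 had a promoter entry, all but Tnfsf12 and Tnfrsf11b, giving 9 windows because Tnfaip3 has a second annotated start. Of these windows 3 held a match, against 5.56% of all 32851 promoter windows of that length. They were both Tnfaip3 windows and that of Nfkbia. The Tnfaip3 window shown held 2 matches, the first starting 12 bases before the start site, the one at the second start (chr10:19011914-19012213, not shown) held 1, starting 90 bases before it, and the Nfkbia window held 1, starting 29 bases before it. The Tnf window held none of these letters, which says nothing about binding there.

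The libraries held 20623769 to 71855101 reads. Between 16.5 and 53.4% of a library's reads fell on rRNA-related loci, with the higher shares unevenly spread over groups: 18.0 to 23.1% in PKM2fl/fl against 43.2 to 47.1% in PKM2-/- hearts at baseline, 16.5 to 29.4% against 31.6 to 50.7% after sham, and 21.6 to 53.4% against 18.2 to 41.4% after MI. The genotypes were thus fully apart in this share at baseline and after sham, and overlapped after MI. The targeted gene Pkm stood at 7779 to 12076 normalized counts in the 8 PKM2fl/fl hearts and at 10120 to 16113 in the 8 PKM2-/- hearts. Gene-level reads sum the PKM1 and PKM2 isoforms, so Pkm does not check the genotype labels. Cardiomyocyte transcripts were abundant in every heart, which fits the labelled tissue. The summed level of 8 cardiomyocyte markers was 1008609 to 1236788 normalized counts after sham and 206512 to 488398 after MI. The sum of 8 leukocyte markers was 5371 to 10375 after sham and 21635 to 37936 after MI, and that of 7 fibroblast markers 22051 to 40094 and 117062 to 156575. Not every marker followed its sum: the fibroblast marker Dcn was lower after MI in both genotypes. In bulk tissue, fewer cells of a type and less RNA per cell cannot be told apart, and the part of this changed cell makeup in the results below was not tested.

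**Figure D1:**
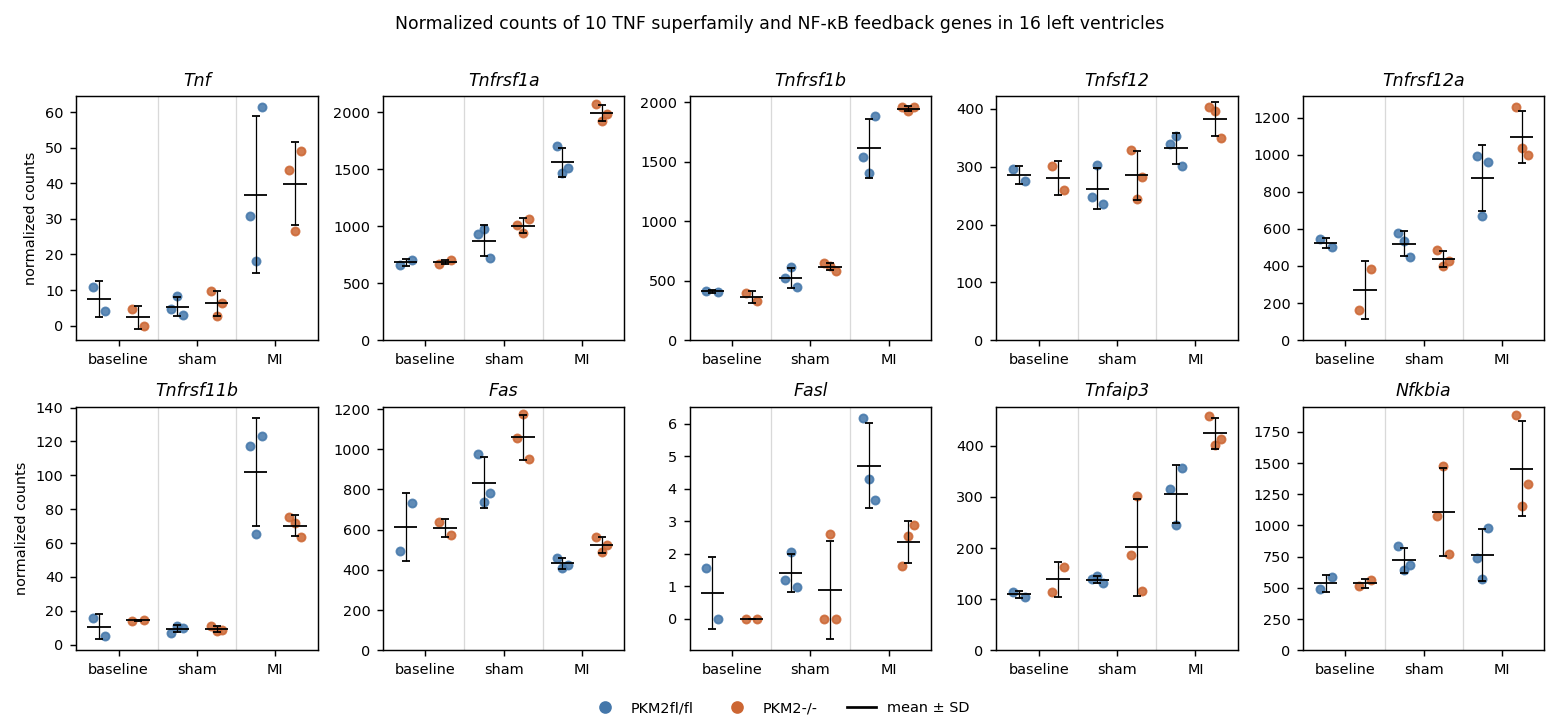
Normalized counts (vertical axis, linear, a separate scale for each gene) of the 10 genes in 16 left ventricles, by treatment and genotype. Each point is a heart, the long bar is the mean and the whiskers are ± SD. Tnfrsf11b lies between 63.5 and 124 in the 6 infarcted hearts and at 15.7 or below in all others, whereas Fas is lower after MI than after sham in both genotypes.

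The first question was how the TNF system of the ventricle changed with infarction. In PKM2fl/fl hearts, ligand, both TNF receptors, Fn14, decoy receptor and A20 were higher 3 days after MI than after sham, while Fas was lower and Nfkbia did not pass the test. Of the 10 genes, 9 had a high enough mean (10 normalized counts over all libraries) to be tested. Tnf reached that mean only through the infarcted hearts. Its group means were 36.8 and 39.8 after MI and 2.3 to 7.5 in the other groups. Its place in the counts that follow is therefore not independent of its rise. By limma with Benjamini-Hochberg adjustment, 8 of these 9 were called in PKM2fl/fl (7 higher, 1 lower), where 50.1% of all 20576 genes tested were called, 24.8% higher and 25.3% lower. In PKM2-/- hearts it was again 8 of 9 (7 higher, 1 lower) against 56.8% of all genes, 28.7% higher and 28.1% lower. The 9 genes had a median log2 fold change of 0.84 in PKM2fl/fl and 1.18 in PKM2-/-, beside -0.0025 and 0.010 over all genes. With a 2-fold minimum added, 4 of 9 were called in PKM2fl/fl (23.5% of all genes) and 6 of 9 in PKM2-/- (28.8%). Fold changes below are on the scale log2(normalized count + 1), which understates those of low genes.

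Among the ligands, Tnf encodes the prototype of the family, an inflammatory cytokine made mainly by macrophages and other leukocytes. Its level was 4.70, 8.21 and 2.94 normalized counts in the 3 PKM2fl/fl sham hearts and 30.9, 18.2 and 61.3 after MI. In PKM2-/- hearts it was 9.65, 2.61 and 6.47 after sham and 43.8, 26.7 and 49.0 after MI. In both genotypes every infarcted heart lay above every sham heart, although the 3 infarcted PKM2fl/fl hearts spread widely. The log2 fold change was 2.51 ± 0.67 (SE, adjusted p = 0.00554, limma) in PKM2fl/fl and 2.58 ± 0.67 (adjusted p = 0.00387) in PKM2-/-. Tnf rested on few reads, at most 67 in a library and none in 1 PKM2-/- baseline heart.

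Tnfsf12 encodes TWEAK, a ligand made widely and without need of induction. It was 248, 303 and 236 normalized counts in PKM2fl/fl sham hearts and 340, 354 and 302 in infarcted ones. In PKM2-/- hearts the sham values were 330, 244 and 282 and the MI values 404, 396 and 349. The groups touched in PKM2fl/fl, where 1 sham heart exceeded 1 infarcted heart, and were separate in PKM2-/-. The change was the smallest of the called ones, 0.34 ± 0.14 in log2 in PKM2fl/fl (adjusted p = 0.0476, limma) and 0.43 ± 0.14 in PKM2-/- (adjusted p = 0.0137). In PKM2fl/fl this call was lost without sham replicate 1 or 3 or MI replicate 1 or 2 (adjusted p = 0.103 to 0.167, limma), with total count scaling (0.17, adjusted p = 0.747), with no filter on low values (adjusted p = 0.0764) and with only the groups compared in the fit (adjusted p = 0.0865). In PKM2-/- it was lost without sham replicate 2 (adjusted p = 0.0697). The Tnfsf12 locus shares 9859 bases with the same-strand fusion gene Tnfsfm13 and 4902 bases with the opposite-strand Tnfsf13os. The strand setting of the counting is not given in the sources used here, so these reads cannot be assigned to Tnfsf12 with certainty.

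Fasl, the death ligand carried by activated T and NK cells, was close to the limit of detection. It reached at most 4 reads in a library and was at 0 in 5 of 16 libraries. In PKM2fl/fl hearts it stood at 1.18, 2.05 and 0.980 normalized counts after sham and 6.18, 4.29 and 3.66 after MI. In PKM2-/- hearts it was at 0, 2.61 and 0 after sham and 1.62, 2.54 and 2.88 after MI. With a floor of 3 reads per library, no fold is given. An exact two-sided permutation test gave p = 0.1 in PKM2fl/fl, the smallest that 3 against 3 allows, and p = 0.3 in PKM2-/-. The 8 T and NK cell markers summed to 31.5 to 95.2 normalized counts in all 16 hearts, and only 2 of the 8 were high enough to be tested, neither of them called.

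Among the receptors, Tnfrsf1a encodes TNFR1, the widely expressed death domain receptor for TNF. It was 929, 973 and 721 normalized counts after sham and 1702, 1468 and 1514 after MI in PKM2fl/fl hearts. PKM2-/- hearts held 1014, 940 and 1065 after sham and 2070, 1927 and 1988 after MI. The log2 fold change was 0.84 ± 0.11 (adjusted p = 1.64e-05, limma) and 0.99 ± 0.11 (adjusted p = 2.67e-06), and no infarcted heart came near the sham range. With total count scaling the PKM2fl/fl value was 0.67 and lost its call (adjusted p = 0.0789).

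Tnfrsf1b encodes TNFR2, which lacks a death domain and is found chiefly on leukocytes and endothelial cells. It read 518, 611 and 445 normalized counts after sham against 1541, 1403 and 1886 after MI in PKM2fl/fl hearts. The PKM2-/- values were 650, 622 and 585 after sham and 1957, 1921 and 1956 after MI. TNFR2 transcripts thus rose by 1.62 ± 0.13 on the log2 scale in PKM2fl/fl (3.07-fold, adjusted p = 2.15e-07, limma) and by 1.65 ± 0.13 in PKM2-/- (adjusted p = 1.35e-07), the smallest adjusted p of the 9 genes in each genotype.

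Tnfrsf12a encodes Fn14, the injury-inducible receptor of TWEAK. Sham hearts held 579, 535 and 450 normalized counts in PKM2fl/fl, and infarcted hearts 991, 672 and 960. In PKM2-/- the values were 484, 398 and 428 after sham and 1257, 1034 and 1000 after MI. The groups were separate in both genotypes, and the log2 fold change was 0.73 ± 0.24 in PKM2fl/fl (adjusted p = 0.0174, limma) and 1.32 ± 0.24 in PKM2-/- (adjusted p = 2.08e-04). Without PKM2fl/fl sham replicate 3, MI replicate 1 or MI replicate 3, the PKM2fl/fl call was lost (adjusted p = 0.0569 to 0.0684), as it was with total count scaling (adjusted p = 0.189). Tnfrsf12a overlaps Hcfc1r1 on the opposite strand by 80 bases.

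Fas encodes the receptor of Fas ligand, and it was the only member of the 9 that fell. In PKM2fl/fl hearts it was 977, 739 and 784 normalized counts after sham and 461, 410 and 425 after MI. The PKM2-/- values were 1055, 1174 and 949 after sham and 564, 487 and 522 after MI. Every infarcted heart lay below every sham heart of its genotype. Unoperated hearts stood between them, at 495 and 735 in PKM2fl/fl and 640 and 575 in PKM2-/-. The fall is thus measured from sham levels above those of unoperated hearts, and MI against baseline was not fitted. The log2 fold change was -0.94 ± 0.14 (adjusted p = 7.66e-05, limma) and -1.01 ± 0.14 (adjusted p = 2.67e-05). Scaled to total counts, the fold change in PKM2-/- was -0.50 and lost its call (adjusted p = 0.172). The 8 cardiomyocyte markers fell in the same comparisons, by a median log2 fold change of -1.77 (7 of 8 called) in PKM2fl/fl and -2.21 (8 of 8) in PKM2-/-, and their part in the lower Fas level was not tested.

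Tnfrsf11b encodes osteoprotegerin, a secreted receptor without a membrane anchor that traps RANKL and TRAIL. It showed the largest fold change of the 9 genes in both genotypes. In PKM2fl/fl hearts it was 7.05, 11.3 and 9.80 normalized counts after sham and 118, 65.4 and 124 after MI. PKM2-/- hearts held 11.2, 7.84 and 8.63 after sham and 75.4, 71.8 and 63.5 after MI. The rise was 3.28 ± 0.37 in log2, or 9.71-fold, in PKM2fl/fl (adjusted p = 5.59e-06, limma) and 2.81 ± 0.37 in PKM2-/- (adjusted p = 1.29e-05). It rested on 6 to 135 reads per library.

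The feedback inhibitors differed from each other. Tnfaip3 encodes A20, a ubiquitin-editing enzyme that shuts off NF-κB signalling downstream of TNFR1. It was 139, 145 and 131 normalized counts in PKM2fl/fl sham hearts and 315, 245 and 357 after MI. PKM2-/- hearts held 186, 302 and 115 after sham and 459, 401 and 414 after MI. The log2 fold change was 1.12 ± 0.26 (adjusted p = 0.00197, limma) and 1.18 ± 0.26 (adjusted p = 0.00111), with no overlap between infarcted and sham hearts.

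Nfkbia encodes IκBα, the cytoplasmic inhibitor that NF-κB resynthesises. In PKM2fl/fl hearts it was 832, 647 and 683 normalized counts after sham and 740, 570 and 980 after MI, so the groups overlapped completely. The PKM2-/- values were 1080, 1477 and 771 after sham and 1882, 1153 and 1329 after MI, also overlapping. Its log2 fold change was 0.06 ± 0.23 in PKM2fl/fl (adjusted p = 0.858, limma) and 0.41 ± 0.23 in PKM2-/- (adjusted p = 0.150). The PKM2-/- value passed the test when counts were scaled to the total (0.92, adjusted p = 0.0149), when rRNA-related loci were left out of that total (0.80, adjusted p = 0.00911), and without PKM2-/- sham replicate 2 (0.64, adjusted p = 0.0323).

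**Figure D2:**
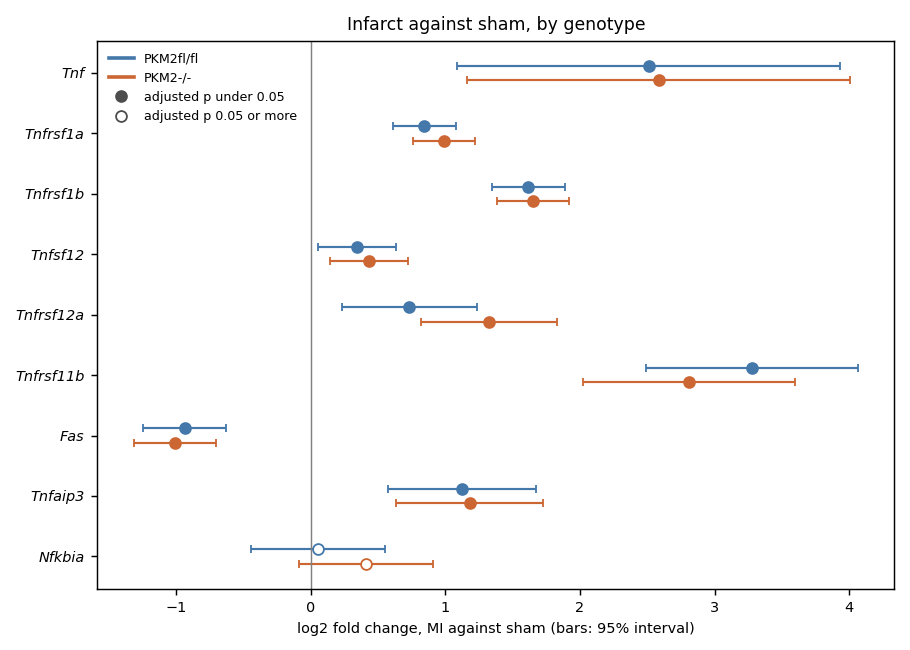
Log2 fold change of MI against sham (horizontal axis) for the 9 genes tested, in PKM2fl/fl and PKM2-/- hearts. Points are limma estimates, bars are their 95% intervals, and filled points have an adjusted p under 0.05. Fas alone lies left of 0 in both genotypes, and only Nfkbia is open in both.

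Whether the response to infarction differed by genotype was tested by the interaction of MI with genotype. None of the 9 genes passed, nor did any of the 20576 genes (0% called, limma with Benjamini-Hochberg adjustment), while 1703 genes and 0 of the 9 had an unadjusted p under 0.05. The count over all genes depended on the setting, at 484 without PKM2fl/fl MI replicate 3, 54 with total count scaling and 52 with DESeq2, with none of the 9 genes among them. Set against baseline instead of sham, a contrast added after the data were seen, the genotype effect after MI likewise passed for none of the 9 (0.0243% of all genes called). In the interaction, the largest difference was that of Tnfrsf12a, whose log2 fold change was greater by 0.59 in PKM2-/- (95% interval -0.12 to 1.30, adjusted p = 0.672, limma). For Nfkbia the difference was 0.35 (95% interval -0.35 to 1.06) and for Tnfrsf11b -0.47 (95% interval -1.58 to 0.64). The other 6 estimates ran from -0.07 to 0.14. Among these 6, the 95% interval was wide for Tnf (-1.94 to 2.09) and Tnfaip3 (-0.72 to 0.83). It was narrower for Tnfrsf1a (-0.18 to 0.47), Tnfrsf1b (-0.35 to 0.42), Tnfsf12 (-0.32 to 0.50) and Fas (-0.51 to 0.36). For genes with wide intervals a moderate difference in response was not detectable with 3 hearts a group, and a small one could be missed for any of the 9.

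The second question was whether the genotypes differed within a treatment. At baseline, none of the 9 genes was called (0.00972% of all genes called, limma with Benjamini-Hochberg adjustment). An unadjusted p under 0.05 was found for 748 of all 20576 genes and for 1 of the 9. This was Tnfrsf12a, at 543 and 504 normalized counts in PKM2fl/fl hearts and 162 and 383 in PKM2-/- hearts. Both PKM2-/- hearts were lower, but they stood far apart: the mean was 273 ± 156 (SD, n = 2) in PKM2-/- and 523 ± 28.0 (SD, n = 2) in PKM2fl/fl hearts. The log2 difference was -1.07 (95% interval -1.68 to -0.45, adjusted p = 0.748, limma), and it was -0.45 without PKM2-/- baseline replicate 1 and -1.68 without replicate 2, neither of them called. Among the alternatives tried it was called with total count scaling alone (-1.65, adjusted p = 0.033), where the median of all genes shifted by -0.588. These groups were also apart in rRNA-related share, as given above, and the part of that in the value was not tested. After sham surgery none of the 9 was called either (0.00972% of all genes). Here an unadjusted p under 0.05 was found for 2047 of all 20576 genes and for 2 of the 9. The largest of these differences was that of Nfkbia, 0.58 in log2 (adjusted p = 0.415, limma).

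After MI, 8 of the 9 genes had a higher mean log2 level in PKM2-/- hearts, yet none was called, against 0.967% of all genes (limma with Benjamini-Hochberg adjustment). The median log2 difference was 0.28 over the 9 genes and -0.0035 over all genes. An unadjusted p under 0.05 was found for 3 of the 9 and for 3492 of all 20576 genes. Nfkbia was nearest to the threshold. All 3 PKM2-/- hearts, at 1882, 1153 and 1329 normalized counts, lay above all 3 PKM2fl/fl hearts, at 740, 570 and 980. The log2 difference was 0.93 (95% interval 0.43 to 1.43, adjusted p = 0.0659, limma). DESeq2 on the recovered reads called it (adjusted p = 0.00739, 5.64% of all genes called), as did the fit without PKM2fl/fl MI replicate 3 (adjusted p = 0.00731, 2271 genes called in all) and total count scaling (1.30, adjusted p = 0.0295, 0.598% of all genes). The call for Nfkbia therefore depended on the setting, while its direction was the same in each alternative tried.

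Both TNF receptors also separated the genotypes after MI without being called, as did Tnfrsf12a, Fas and Tnfaip3. How many of all genes separate in this way was not counted. Tnfrsf1a was 1927 to 2070 normalized counts in PKM2-/- against 1468 to 1702 in PKM2fl/fl hearts (log2 difference 0.36, adjusted p = 0.114, limma), and DESeq2 called it (adjusted p = 0.046). Tnfrsf1b was 1921 to 1957 against 1403 to 1886 (0.28, adjusted p = 0.271, limma), and it was called without PKM2fl/fl MI replicate 3 (adjusted p = 0.048). Tnfaip3 was 401 to 459 in PKM2-/- against 245 to 357 in PKM2fl/fl hearts (0.49, adjusted p = 0.354, limma). Tnfrsf12a was 1000 to 1257 against 672 to 991 (0.34, adjusted p = 0.494, limma), and Fas 487 to 564 against 410 to 461 (0.28, adjusted p = 0.34, limma). Tnfrsf11b went the other way, 63.5 to 75.4 in PKM2-/- against 65.4 to 124 in PKM2fl/fl (-0.48, adjusted p = 0.539, limma), with overlapping groups. The summed level of 6 neutrophil markers was 3529 to 4530 normalized counts in infarcted PKM2-/- hearts and 1232 to 2141 in infarcted PKM2fl/fl hearts, whereas the leukocyte marker sum overlapped (29046 to 33959 against 21635 to 37936). None of the 5 neutrophil markers tested, nor of the 8 leukocyte markers, was called between the genotypes after MI. The part of these marker sums in the receptor, Tnfaip3 and Nfkbia levels was not tested.

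**Figure D3:**
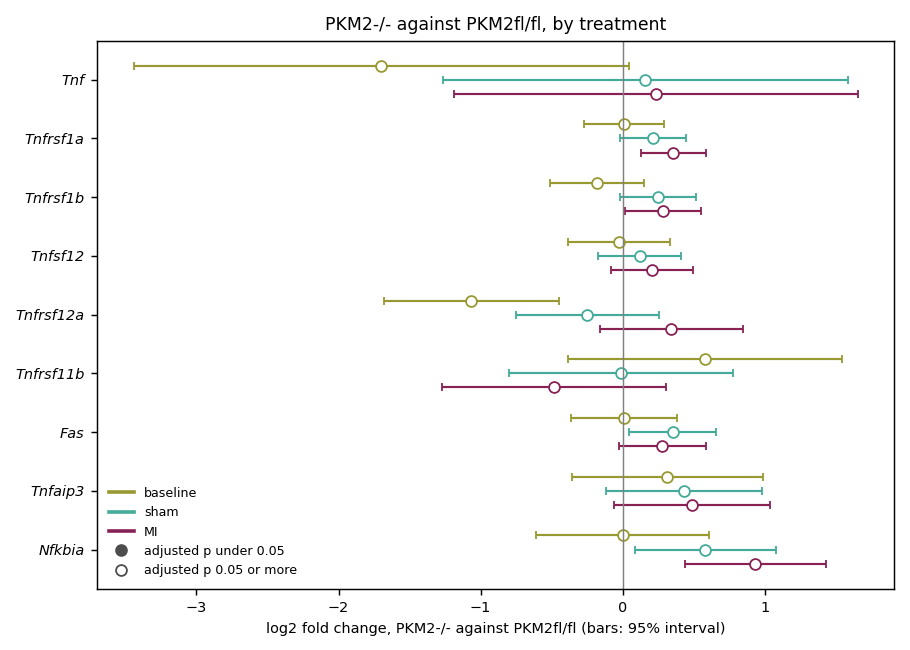
Log2 fold change of PKM2-/- against PKM2fl/fl hearts (horizontal axis) for the 9 genes tested, at baseline, after sham and after MI. Points are limma estimates with 95% intervals, and all are open because none had an adjusted p under 0.05. Tnfrsf12a lies at -1.07 at baseline and 0.34 after MI, and Nfkbia at 0.93 after MI.

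Sham surgery itself was compared with no surgery. In PKM2fl/fl hearts none of the 9 genes was called (0.19% of all genes, limma with Benjamini-Hochberg adjustment). Of the 9, 3 had an unadjusted p under 0.05, as did 1813 of all 20576 genes. The highest estimate was that of Fas at 0.46 in log2 (adjusted p = 0.339, limma). Without sham replicate 3, Tnfrsf1a was called there (0.48, adjusted p = 0.0439). In PKM2-/- hearts 4 of the 9 were called, all higher, against 5.14% of all genes (3.48% higher). With a 2-fold minimum the count was 0 of 9 (2.66% of all genes). Markers of other cells moved in the same comparison: all 5 neutrophil markers tested were called higher (median log2 fold change 3.41), with the sum of the 6 listed at 132 to 167 normalized counts at baseline and 974 to 1258 after sham, and so were 2 of 8 leukocyte and 2 of 7 fibroblast markers. Their part in the rises was not tested. Fas rose from 640 and 575 normalized counts at baseline to 1055, 1174 and 949 after sham (0.80 in log2, adjusted p = 0.0105, limma). Tnfrsf1b rose from 397 and 328 to 650, 622 and 585 (0.77, adjusted p = 0.00688, limma). Tnfrsf1a rose from 671 and 702 to 1014, 940 and 1065 (0.55, adjusted p = 0.0168, limma). For each of these receptors every sham heart was above both baseline hearts. Nfkbia also rose, from 512 and 561 to 1080, 1477 and 771 (1.00, adjusted p = 0.0386, limma). These calls rested on few baseline hearts. Without PKM2-/- baseline replicate 2 the calls of Fas (adjusted p = 0.103), Tnfrsf1b (0.0878), Tnfrsf1a (0.0838) and Nfkbia (0.143) were lost, and Tnfrsf12a, at 0.80 in the full data (adjusted p = 0.0978), was gained (1.42 in log2, adjusted p = 0.0078). Without baseline replicate 1 the Tnfrsf12a value was 0.18 (adjusted p = 0.812). Without baseline replicate 1 or sham replicate 1 those of Tnfrsf1a (0.119 and 0.0507) and Nfkbia (0.212 and 0.0941) were lost, and without sham replicate 2 that of Nfkbia (0.122). When the sham effects of the genotypes were compared, 0 of the 9 genes passed (adjusted p = 0.769 to 0.999, limma), as did 0% of all genes. The Fas and TNF receptor levels after sham also enter the MI comparisons, which share these sham hearts.

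Levels can be compared between genes only per length of exon. In infarcted PKM2fl/fl hearts Tnfrsf1a had the highest normalized count per kilobase (496 ± 39.4, SD, n = 3), followed by Tnfrsf12a (445 ± 89.6), Nfkbia (394 ± 106) and Tnfrsf1b (325 ± 50.3), neighbours whose spreads overlapped. Tnfrsf11b (33.9), Tnfaip3 (31.5) and Tnf (22.5) formed a lower tier, and Fasl was at 2.42. At baseline the PKM2fl/fl order was led by Nfkbia (278), Tnfrsf12a (266) and Fas (265), with Tnfrsf1a at 217 and Tnfrsf1b at 82.7.

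Across the 16 hearts similarity of level was described by Pearson's r of log2 levels, given with no test because the hearts share the difference between infarct and sham. Tnfrsf1b followed Tnfrsf1a (r = 0.976) and Tnf (r = 0.901). Nfkbia followed Tnfaip3 (r = 0.773) more than Tnf (r = 0.468). Among genes averaging 50 normalized counts or more, the nearest to Tnfrsf1b were Fgd3 and Vav1 (both r = 0.996), to Tnf were Gm44454 (r = 0.967) and Traf1 (r = 0.955), to Tnfrsf11b were Ccn4 (r = 0.982) and Enpp1 (r = 0.979), and to Tnfrsf12a were Gpaa1 (r = 0.957) and Cks2 (r = 0.946). Tnfsf12 was nearest to the overlapping Tnfsfm13 (r = 0.959). Nfkbia was nearest to Klhl2 (r = 0.968) and S1pr1 (r = 0.962).

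The rest of the pathway was read from lists of named genes, whose counts stand against the 50.1% of all genes called in PKM2fl/fl and the 56.8% in PKM2-/-. Of 18 TNF superfamily ligands, 11 were tested: 5 rose and 0 fell after MI in PKM2fl/fl hearts, and 6 rose and 1 fell in PKM2-/- hearts (median log2 fold change 1.05 and 1.49). The share called was 45.5% and 63.6%, near that of all genes. Tnfsf14 (LIGHT) rose by 2.60 and 3.03 in log2, and Tnfsf11, which encodes RANKL, the ligand that osteoprotegerin traps, by 2.40 and 5.27. Tnfsf11 stood at 22.4 ± 10.2 normalized counts in infarcted PKM2fl/fl and 70.5 ± 11.3 in infarcted PKM2-/- hearts (SD, n = 3), and its interaction with genotype was not called (adjusted p = 0.579, limma). With these levels, its fold changes imply only a few normalized counts after sham in either genotype. The size of the Tnfsf11 rise, and its difference between genotypes, is therefore uncertain. Like Tnf, Tnfsf11 reached the mean of 10 needed for testing only through the infarcted hearts. Its place in the ligand counts is thus not independent of its rise. Of 28 receptors, 25 were tested, with 17 rising and 3 falling in PKM2fl/fl and 19 and 4 in PKM2-/- (80.0 and 92.0% called, median 0.99 and 1.03). Among them Tnfrsf11a, the signalling receptor of RANKL, rose by 1.67 and 2.07. RANKL, its receptor and its decoy thus all had higher transcript levels after MI in both genotypes, with that limit on Tnfsf11.

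Of 4 genes that act on TNF shedding, 3 rose and 1 fell in PKM2fl/fl hearts, and 2 rose and 1 fell in PKM2-/-, too few for a share. Adam17, the sheddase of TNF and its receptors, changed by 0.49 and 0.39 in log2, and Timp3, its tissue inhibitor, by -0.64 and -0.68. Of 18 adaptors and death signalling genes, 6 rose and 1 fell in PKM2fl/fl and 10 rose and 2 fell in PKM2-/-. These are 38.9 and 66.7% of the list, below and above the shares of all genes. Those that rose included Ripk3, the necroptosis kinase (2.24 and 2.34), Casp8, the initiator caspase of death receptors (1.52 and 1.36), and Ripk1 (0.93 and 1.14). Of 9 IκB kinase and NF-κB subunits, 6 rose in PKM2fl/fl and 8 in PKM2-/-, and none fell (66.7 and 88.9% called). Of 12 NF-κB inhibitors and feedback genes, which include Tnfaip3 and Nfkbia, 6 rose and 2 fell in PKM2fl/fl and 4 rose and 1 fell in PKM2-/-, or 66.7 and 41.7%, the latter below the share of all genes. Nfkbid (2.27 and 1.99), Nfkbie (1.54 and 1.75) and Nfkbiz (1.34 and 1.18) rose in both, unlike Nfkbia, and Otulin, a deubiquitinase of linear chains, fell (-0.77 and -1.06).

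Of 16 NF-κB target genes, 15 were tested, with 10 rising and 1 falling in PKM2fl/fl and 11 rising and 2 falling in PKM2-/- (73.3 and 86.7% called, median 2.00 and 2.16). The chemokine gene Ccl2 rose by 3.82 in PKM2fl/fl and 3.82 in PKM2-/-, the survival gene Bcl2a1b by 3.78 and 4.07 and the cyclooxygenase gene Ptgs2 by 2.20 and 2.68. Sod2, the mitochondrial superoxide dismutase, fell (-1.52 and -1.75), and the cause was not tested. In the same comparisons all 8 leukocyte markers rose (median 1.82 and 2.03), as did 5 of 7 fibroblast markers. Of the other fibroblast markers, Dcn fell (-0.53 and -0.58) and Tcf21 was not called. Rises in targets made by leukocytes or fibroblasts cannot be told apart from changed cell numbers.

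**Figure D4:**
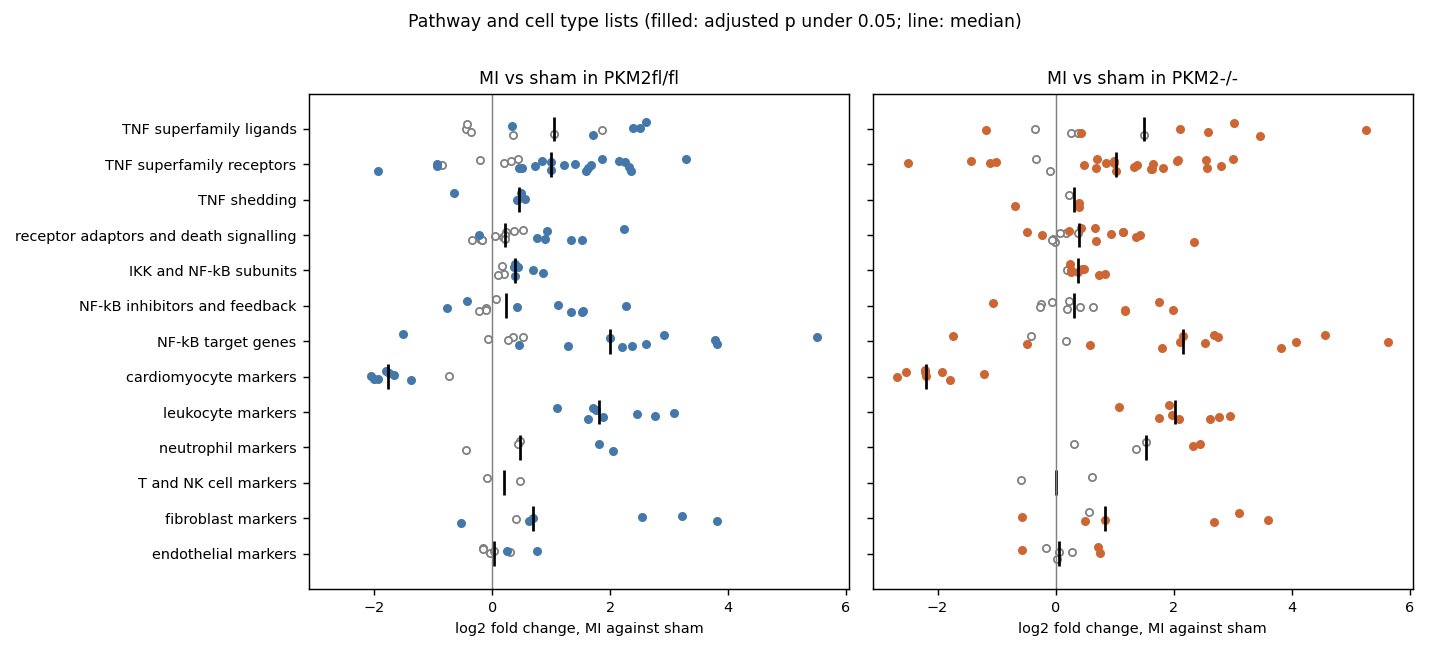
Log2 fold change of MI against sham (horizontal axis) for each tested gene of the pathway and cell type lists, in PKM2fl/fl (left) and PKM2-/- hearts (right). Filled points have an adjusted p under 0.05 and the vertical bar is each list's median. NF-κB target genes have medians of 2.00 and 2.16, near those of the leukocyte markers at 1.82 and 2.03, and cardiomyocyte markers lie at -1.77 and -2.21.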

How the data were processed

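RNA from 16 left ventricles was depleted of rRNA and sequenced as paired ends. Per the labels and the paper's methods, the authors trimmed with PRINSEQ, aligned to mm10 with HISAT2, counted with featureCounts and scaled with DESeq2. The deposited values are a normalized signal, the count of a gene divided by a library's size factor. Versions and the strand and multi-mapping settings are not given in the sources used here. Columns holding the authors' own baseline comparison (fold change, error, statistic and p-values) were not used. Division by each library's step gave whole reads for 100% of values (within 0.02). Among values of 1 to 20 reads, 62.4 to 69.9% were even, and all 11 nonzero Fasl values were even. Whether the ends of a pair were counted separately is not stated; reads may thus overstate the number of independent fragments.

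Groups were taken from the sample labels. limma 3.58.1 (R 4.3.3) with an intensity trend was fitted to log2(normalized count + 1) of genes with a mean of at least 10, over all 16 libraries in 6 groups, with Benjamini-Hochberg adjustment over 20576 genes and a call at an adjusted p under 0.05. The difference of genotype effects between treatments and baseline was added after the data were seen. Alternatives were total count, TMM and rRNA-free scaling, DESeq2 1.42.0, edgeR 4.0.16 and limma-voom on recovered reads, a pseudocount of 0.1, no filter, a replicate block, only the groups compared, a 2-fold minimum and each library left out. The fits were tested on simulated data.

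The genes and lists were chosen with earlier results of these data known. The genes named are all 10 members, at most 4 genes of each pathway list with the smallest p over both MI comparisons, and Pkm. Of the 3 genes nearest in pattern to each member, 1 or 2 are named for some members and none for Tnfrsf1a, Fas and Tnfaip3. Marker lists were those of cardiomyocytes, leukocytes, neutrophils, T and NK cells, fibroblasts, endothelium, atrium, adipocytes and erythroid cells. After MI, 2 of 7 endothelial markers rose in each genotype and 1 fell in PKM2-/-, 1 of 4 atrial markers rose in each, 0 of 5 erythroid markers were called and 0 of 5 adipocyte markers were tested. Each library is taken to be a separate mouse, although the labels do not say so. No 2 replicates agreed within sampling noise. Read intervals and floors cover counting error only.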

Additional observations from a re-analysis of the deposited data

Results flagged for a closer look

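The effect of genotype after MI minus that at baseline was singled out for Tnfrsf12a and Tnfrsf1b, because every PKM2-/- heart lay below every PKM2fl/fl heart at baseline (2 against 2) and above every one after MI (3 against 3). This contrast was added after the data were seen. How many of all genes show the same pattern was not counted. The estimates below come from the values that singled these genes out, so they give no separate evidence of a reversal. For Tnfrsf12a, PKM2-/- hearts went from 162 and 383 normalized counts to 1257, 1034 and 1000, and PKM2fl/fl hearts from 543 and 504 to 991, 672 and 960. The difference of the log2 genotype effects was 1.41 ± 0.37 (SE, 95% interval 0.61 to 2.20, adjusted p = 0.305, limma). For Tnfrsf1b it was 0.464 ± 0.20 (SE, 95% interval 0.04 to 0.89, adjusted p = 0.493, limma). Neither passed, nor did the other 7 genes tested, against 0.0243% of all genes called. Without PKM2-/- baseline replicate 2, whose Tnfrsf12a level was the higher of the pair, the Tnfrsf12a difference was 2.02 and was called (adjusted p = 0.0166, limma), and without replicate 1 it was 0.79 and was not (adjusted p = 0.471). Tnfrsf11b ran the opposite way, at -1.06 (95% interval -2.30 to 0.18, adjusted p = 0.600, limma).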

How the results depend on the processing

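Counts of the 9 genes called were 8 and 8 for MI against sham in PKM2fl/fl and PKM2-/- (50.1 and 56.8% of all genes). With total count scaling 5 were called in PKM2fl/fl (29.2% of all genes), 1 at baseline by genotype (Tnfrsf12a; 0.214%), 1 after MI by genotype (Nfkbia; 0.598%), 1 for sham against baseline in PKM2-/- (Nfkbia, down from 4; 2.85%), and 2 for the genotype effect after MI minus that at baseline (Tnfrsf12a 2.36, Nfkbia 1.89; 0.748%). A 2-fold minimum left 4 in PKM2fl/fl after MI (23.5% of all genes), 6 in PKM2-/- after MI (28.8%) and 0 for sham in PKM2-/- (2.66%). DESeq2 called 2 by genotype after MI (5.64% of all genes), limma-voom 2 for sham in PKM2-/- (1.88%), and scaling to the total without rRNA-related loci 9 for MI in PKM2-/- (61.9%). With no filter, 7 were called for MI in PKM2fl/fl (25% of all genes) and 3 for sham in PKM2-/- (2%). With only the groups compared, these counts were the same, against 44.9 and 3.23% of all genes. Leaving out each sham or MI library gave 6 to 8 for MI in PKM2fl/fl (43.3 to 49.6% of all genes) and 8 in PKM2-/- (51 to 53.6%). By genotype after MI it gave 0 to 2, with the 2 found where 11% of all genes were called and 0.0535 to 0.228% elsewhere. For sham against baseline it gave 0 to 1 in PKM2fl/fl (1.37% where the 1 was called) and 2 to 4 in PKM2-/- (2.93 to 4.76%). It gave 0 throughout for MI minus baseline (0.0243 to 2%), genotype after sham (0 to 0.433%) and the interaction (0 to 2.35%). Fits without a baseline library left 1 heart in a group and are not counted here.

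Total count scaling moved the median of all genes by -0.177 and 0.516 (MI), -0.588, -0.325 and 0.360 (genotype at baseline, sham and MI) and 0.675 (interaction), and scaling to the total without rRNA-related loci (rRNA-free) moved the MI medians by 0.279 and 0.392. Genes called higher and lower after MI were 5097 and 5202 in PKM2fl/fl (total count 2369 and 3638, rRNA-free 7836 and 3105) and 5899 and 5780 in PKM2-/- (7223 and 1891, 9344 and 3394). edgeR on the recovered reads called 10504 and 11671 genes after MI, among them 8 and 8 of the 9. Over the alternatives, 6 to 1033 genes were called by genotype after MI, against 199, and 2271 without PKM2fl/fl MI replicate 3.

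Signs that turned were of estimates that were not called. With total count scaling these were Nfkbia -0.12 (MI in PKM2fl/fl), Tnfrsf1a -0.58, Fas -0.58 and Tnfaip3 -0.27 (genotype at baseline), Tnf -0.11, Tnfrsf1a -0.11, Tnfrsf1b -0.074 and Tnfsf12 -0.20 (genotype after sham), and Tnfrsf11b 0.18 and Fas 0.62 (interaction). With rRNA-free scaling they were Tnfrsf1a -0.047 and Fas -0.047 (baseline) and Fas 0.028 (interaction). With DESeq2 and edgeR they were Fas -0.016 and -0.021 (baseline), Tnf -0.20 and -0.24 and Tnfaip3 -0.066 and -0.074 (interaction). With limma-voom they were Tnf -0.27 (interaction), Tnfrsf11b 0.046 (genotype after sham), Tnfrsf11b 0.0043 (sham against baseline in PKM2fl/fl; 0.010 with a pseudocount of 0.1) and Tnfsf12 -0.027 (the same in PKM2-/-).

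Leave-one-out ranges that crossed 0 were, for MI in PKM2fl/fl, Nfkbia -0.14 to 0.25. For genotype at baseline they were Tnfrsf1a -0.042 to 0.060, Tnfsf12 -0.13 to 0.080, Tnfrsf11b -0.12 to 1.28, Fas -0.28 to 0.29 and Nfkbia -0.13 to 0.13, after sham Tnf -0.19 to 0.59 and Tnfrsf11b -0.18 to 0.12, and after MI Tnf -0.17 to 0.68. For the interaction they were Tnf -0.36 to 0.52, Tnfrsf1b -0.080 to 0.15, Tnfsf12 -0.020 to 0.20, Fas -0.19 to 0.0087 and Tnfaip3 -0.29 to 0.40. For sham against baseline they were Tnf -1.02 to 0.25, Tnfrsf12a -0.093 to 0.089 and Tnfrsf11b -0.71 to 0.70 in PKM2fl/fl and Tnfsf12 -0.096 to 0.12 in PKM2-/-. For the genotype effect against that at baseline they were Fas -0.017 to 0.55 and Tnfaip3 -0.082 to 0.43 (MI), and Tnfrsf11b -1.29 to 0.11 and Tnfaip3 -0.23 to 0.46 (sham). The causes were not tested.

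Replicate numbers did not pair the hearts: deviations of 36 same-numbered pairs correlated between -0.196 and 0.126, with 1 over 0.1. With the replicate block, counts for MI stayed at 8 and 8, sham against baseline in PKM2-/- gave 3 rather than 4 (Nfkbia, adjusted p = 0.0581, limma), and Tnfrsf12a for sham in PKM2fl/fl read 0.011. Over all genes the block gave 10054 and 11410 calls for MI and 75 rather than 199 by genotype after MI. For sham against baseline in PKM2-/- it gave 865 rather than 1058.

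Tnf, Tnfrsf11b and Fasl are limited by low read numbers, and 2 baseline hearts a genotype limit every comparison with baseline.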
